A study of Homo sapiens with 8 samples.

Results

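The genes examined here are 10 core components of the NF-κB pathway in multiple myeloma (MM) cells: the subunits NFKB1, NFKB2, REL, RELA and RELB, the inhibitors NFKBIA, NFKBIE and TNFAIP3, and the regulators TRAF3 and MAP3K14. They were chosen by symbol, and all 10 were found, each as 1 of the 63677 genes counted. By their labels, the 8 RNA-seq libraries came from JJN3 and H929, both established MM lines. Also by the labels, each line was kept for 24 h in DMSO, the vehicle, or in THZ1 (50 nM), with 2 libraries per line and treatment. THZ1 binds covalently to CDK7, a kinase that phosphorylates RNA polymerase II early in transcription. Neither line carries a transgene or an engineered allele in the labels, and the labels do not say whether the libraries of a group came from separate cultures. The p-values therefore measure the spread between these libraries, which may be technical.

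NF-κB factors are dimers of 5 related subunits. In the canonical pathway, the NFKB1 product p50 pairs with RELA or REL and is held in the cytoplasm by IκB proteins, among them those encoded by NFKBIA and NFKBIE, until the IKK complex marks these for destruction. In the non-canonical pathway, the kinase NIK, encoded by MAP3K14, leads to processing of the NFKB2 precursor p100 to p52, which pairs with RELB, while TRAF3 keeps NIK low by targeting it for degradation. Mutations that activate either arm, loss of TRAF3 among them, are well known in MM, and NFKB2, NFKBIA, NFKBIE, TNFAIP3 and RELB are themselves textbook targets of NF-κB.

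The libraries held 17476443 to 19194371 counts on genes, and the members held between 85 counts (REL, JJN3 with DMSO) and 4778 counts (NFKB2, labelled H929 DMSO) in a library. Across genes, the correlation of log2 CPM (counts scaled to a common library total) between DMSO and THZ1 libraries was 0.966 to 0.972 in JJN3 but 0.777 to 0.812 under the H929 label, where that between the H929 and JJN3 labels was 0.772 to 0.814. Plasma cell markers were present in all libraries, with a summed level of 3960 to 4255 CPM in JJN3, 3397 and 3630 CPM under the label H929 DMSO, and 11821 and 11810 CPM under the label H929 THZ1. IGJ made up much of these sums (1618 to 4979 CPM). In JJN3, 5 of the 9 markers were called lower with THZ1 (IRF4, MZB1, SLAMF7, TNFRSF17 and XBP1, with log2 fold changes from -1.65 in SLAMF7 to -0.55 in IRF4) and none higher, and under the H929 label CD38 and MZB1 were lower and the other 7 higher. The rule for calls is given below. By it, 21.3% of all genes tested were lower and 20.6% higher in JJN3, and 32.6% and 33.1% under the H929 label. All 9 plasma cell markers exceeded 3 counts in every library except SLAMF7, which had 2 and 174 counts under the label H929 DMSO and 8948 and 9173 under H929 THZ1. The 4 stromal and epithelial markers summed to 217 and 211 CPM under the label H929 DMSO, to 1.58 and 1.32 CPM under H929 THZ1 and to 70.0 to 87.7 CPM in JJN3. EPCAM had 2391 and 2249 counts under the label H929 DMSO, 1 and 6 under H929 THZ1 and 1195 to 1373 in JJN3. KRT18, a keratin, had 1593 and 1488 counts under the label H929 DMSO and 19 and 17 counts under H929 THZ1. In JJN3, KRT18 had 0 counts in both DMSO libraries and 5 and 8 counts with THZ1. The myeloid markers summed to 33.7 and 26.1 CPM under the label H929 DMSO and at most 0.489 CPM elsewhere, mostly from ITGAM (607 and 463 counts), with LYZ at 0 or 1 count everywhere. The T cell markers summed to 34.0 and 34.7 CPM under the label H929 THZ1 and at most 4.71 CPM elsewhere, mostly from CD3E (640 and 650 counts), while CD3D did not exceed 4 counts in any library. The B cell markers summed to at most 3.95 CPM, with CD22 at 0 throughout. These libraries are therefore called by their labels, under the H929 label THZ1 and the origin of the cells cannot be told apart, and the part of these differences in the members' values was not tested. In bulk RNA, fewer cells of a kind and less RNA per cell cannot be told apart either, and no spike-in gives an absolute scale.

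The promoters of the members are shown first, because several of these genes are known to respond to NF-κB. RefSeq windows of 300 bases (250 before and 50 after the transcript start, build GRCh38.p14) were given for 8 members and 12 start sites. The 10-base κB consensus was searched on both strands, with overlapping matches kept. It was found in 7 of these 12 windows and in 6 members, and in 11.3% of all 35116 windows in the genome (13.3% of genes). The stretches below hold these matches in capitals, read 5′ to 3′ on the strand of the gene, and a match describes the letters only.
NFKB1, chr4:102501265-102501364, + strand: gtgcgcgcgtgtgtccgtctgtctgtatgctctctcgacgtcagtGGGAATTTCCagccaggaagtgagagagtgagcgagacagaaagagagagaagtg
NFKB2, start site 2, chr10:102394440-102394539, + strand: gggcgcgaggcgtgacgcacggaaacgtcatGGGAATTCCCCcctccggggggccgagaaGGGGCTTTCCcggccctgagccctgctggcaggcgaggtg
NFKB2, start site 3, chr10:102395484-102395583, + strand: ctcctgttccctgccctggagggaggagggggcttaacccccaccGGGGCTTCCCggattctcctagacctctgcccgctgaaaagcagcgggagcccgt
NFKB2, start site 3, chr10:102395639-102395738, + strand: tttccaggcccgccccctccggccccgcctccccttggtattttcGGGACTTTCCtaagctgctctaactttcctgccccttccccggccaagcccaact
REL, chr2:60881482-60881581, + strand: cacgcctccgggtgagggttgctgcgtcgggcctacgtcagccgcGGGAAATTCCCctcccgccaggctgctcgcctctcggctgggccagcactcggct
NFKBIA, chr14:35404776-35404875, - strand: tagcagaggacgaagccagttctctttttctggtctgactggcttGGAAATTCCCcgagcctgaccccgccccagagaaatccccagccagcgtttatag
TNFAIP3, chr6:137867153-137867252, + strand: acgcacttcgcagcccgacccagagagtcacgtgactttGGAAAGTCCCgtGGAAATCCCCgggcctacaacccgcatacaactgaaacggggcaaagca
TRAF3, chr14:102777371-102777470, + strand: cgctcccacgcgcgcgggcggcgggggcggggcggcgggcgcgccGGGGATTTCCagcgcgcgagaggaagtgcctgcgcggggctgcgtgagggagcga
NFKB2 held the most matches, 3 in the window of start site 2 (2 of them overlapping) and 2 in that of start site 3, centred 171 and 16 bases upstream. In the other members shown, the matches were centred 28 to 76 bases upstream, from 28 in TRAF3 to 76 in NFKBIA. No match to these letters lay in the windows of RELA or MAP3K14. RELB and NFKBIE were not looked at in this way.

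**Figure D1:**
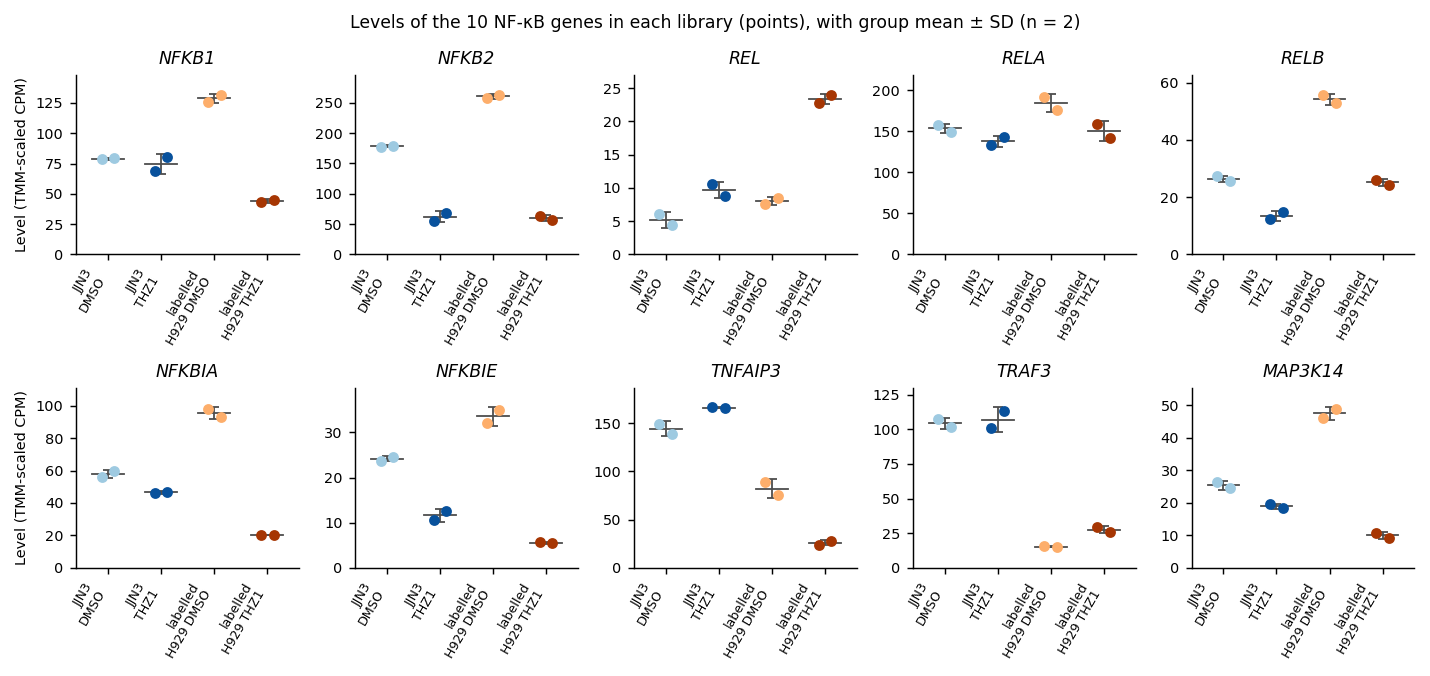
Level of each of the 10 genes in each library (points, in CPM scaled by the TMM method, axis from 0), with the group mean (line) and SD (bar, n = 2). NFKB2 is lower with THZ1 than with DMSO under both line labels, REL is higher, and TRAF3 is at 101 to 113 CPM in JJN3 and 15.0 to 29.5 CPM in the libraries labelled H929.

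To ask how THZ1 changed these genes within JJN3, counts were compared with edgeR's quasi-likelihood test. Calls needed a log2 fold change beyond 0.5 with an adjusted p below 0.05. In JJN3, 3 of the 10 members were called lower with THZ1 (NFKB2, RELB and NFKBIE), where 21.3% of the 13984 genes tested were, and 1 was called higher (REL), where 20.6% were. The 4 members called in either direction stand beside 41.8% of all genes, so their share is near the background. The median log2 fold change was -0.22 over the 10 members and 0.00 over all genes tested.

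Among the subunits, NFKB2 (ENSG00000077150, chr10:104153867-104162281, hg19) showed the largest fall of the members in JJN3. Its level was 177 and 179 CPM with DMSO and 55.6 and 68.5 CPM with THZ1. No THZ1 library came near a DMSO library, and the log2 fold change was -1.50 ± 0.10 (SE, n = 2 per group), a fall of 2.84-fold, with an adjusted p of 1.15e-06 in edgeR. RELB, the partner of p52 (ENSG00000104856, chr19:45504719-45541450), was at 27.2 and 25.6 CPM with DMSO and 12.2 and 14.7 CPM with THZ1. It fell by 0.96 ± 0.12 on the log2 scale (adjusted p = 6.93e-05 in edgeR). Both genes of the p52 and RELB dimer were thus called lower in JJN3, as was the inhibitor NFKBIE (log2 fold change -1.04).

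The other subunits were not called lower in JJN3. NFKB1 (chr4:103422487-103538459), which encodes p105 and p50, was at 78.4 and 79.3 CPM with DMSO and 68.9 and 80.7 CPM with THZ1, and the groups overlapped (log2 fold change -0.06 ± 0.09, adjusted p = 0.599 in edgeR). RELA (chr11:65421070-65430561), the main activating subunit of the canonical pathway, was at 158 and 150 CPM with DMSO and 133 and 143 CPM with THZ1. Its libraries did not overlap, but its log2 fold change of -0.14 ± 0.08 was not called (adjusted p = 0.157 in edgeR). REL (chr2:61108626-61158747), the lymphoid subunit c-Rel, was the member with the lowest level, at 6.06 and 4.36 CPM with DMSO and 10.5 and 8.84 CPM with THZ1. It rose by 0.91 ± 0.20 on the log2 scale, or 1.88-fold (adjusted p = 0.00214 in edgeR). REL and NFKB2 thus moved in opposite directions.

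Of the inhibitors, only NFKBIE was called in JJN3. NFKBIE (chr6:44225903-44233525), which encodes IκBε, was at 23.8 and 24.6 CPM with DMSO and 10.6 and 12.6 CPM with THZ1. It fell by 1.04 ± 0.13 on the log2 scale, 2.05-fold (adjusted p = 4.24e-05 in edgeR). NFKBIA (chr14:35870285-35873955), which encodes IκBα, was at 56.3 and 59.5 CPM with DMSO and 46.0 and 47.0 CPM with THZ1. The difference exceeded the spread of the libraries and was smaller than the fold change limit (log2 fold change -0.30 ± 0.08, adjusted p = 0.00972 in edgeR). TNFAIP3 (chr6:138188351-138204451), the ubiquitin-editing enzyme A20 that switches off canonical signaling, was at 150 and 139 CPM with DMSO and 167 and 166 CPM with THZ1. Its log2 fold change of 0.22 ± 0.08 also lay within the limit (adjusted p = 0.0328 in edgeR and 0.0895 in DESeq2). The 3 inhibitors thus had log2 fold changes from -1.04 to 0.22.

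Upstream of NIK, the level of TRAF3 (chr14:103243786-103377837) did not separate the treatments in JJN3. It was at 107 and 101 CPM with DMSO and 101 and 113 CPM with THZ1, with overlapping libraries and a log2 fold change of 0.05 ± 0.09 (adjusted p = 0.617 in edgeR). MAP3K14 (chr17:43340486-43394395) was at 26.2 and 24.4 CPM with DMSO and 19.4 and 18.3 CPM with THZ1. The libraries did not overlap, and its log2 fold change of -0.41 ± 0.11 stayed inside the limit (adjusted p = 0.00758 in edgeR). Scaled to total counts it was -0.51 and was called, while the median of all genes moved to -0.10 under that scaling, and the sign of TRAF3 turned to -0.05.

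Without the limit on the fold change, 7 members passed in JJN3 (59% of all genes tested did), of which NFKBIA, TNFAIP3 and MAP3K14 were the additions. With 1 DMSO library left out these 3 did not always pass, while their log2 fold changes stayed within 1.5 times. Without DMSO replicate 2 they were -0.27 for NFKBIA (adjusted p = 0.121 in edgeR) and 0.16 for TNFAIP3 (0.386). Without DMSO replicate 1 they were 0.25 for TNFAIP3 (0.142) and -0.37 for MAP3K14 (0.0762). In 6 members both THZ1 libraries lay below both DMSO libraries, as in 41.4% of all genes, and in REL and TNFAIP3 they lay above, as in 38.5%. Leaving out any of the 4 libraries left the count of called members at 4. NFKB1, RELA, TNFAIP3, TRAF3 and MAP3K14 each overlap an antisense gene in the annotation, whose reads cannot be told apart from theirs without strand, and no source used here states whether counting used strand.

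**Figure D2:**
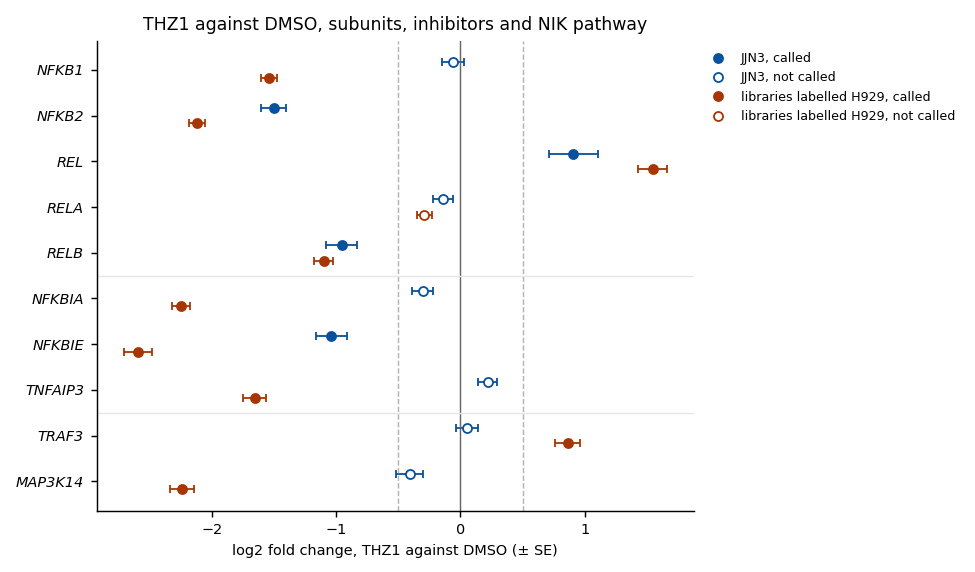
log2 fold change of THZ1 against DMSO (horizontal axis, bars ± SE) of the 10 genes in JJN3 (blue) and in libraries labelled H929 (brown), with the limits of 0.5 dashed and called genes filled. NFKB2, RELB and NFKBIE lie left of the limit and REL right of it under both labels, and the other members except RELA pass it under the H929 label alone.

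In the libraries labelled H929, more members were called than in JJN3, as were more genes overall. Here 7 of 10 were called lower in those labelled THZ1, where 32.6% of 14863 genes tested were, and 2 were called higher, where 33.1% were. The 9 in all stand beside 65.7% of genes called in either direction, and the median log2 fold change was -1.60 over the members and 0.01 over all genes tested. Leaving out any of these 4 libraries left the count at 9.

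The subunits again led with NFKB2, at 257 and 263 CPM in the libraries labelled DMSO and 63.4 and 55.9 CPM in those labelled THZ1. That is a 4.35-fold lower level (log2 fold change -2.12 ± 0.06, adjusted p = 4.44e-14 in edgeR). NFKB1 was at 126 and 131 CPM against 42.9 and 45.3 CPM, a log2 fold change of -1.54 ± 0.06 (adjusted p = 1.78e-12 in edgeR). NFKB1 was therefore among the genes called lower, which it was not in JJN3. RELB was at 55.5 and 52.8 CPM against 26.0 and 24.3 CPM (log2 fold change -1.10 ± 0.08, adjusted p = 1.78e-09 in edgeR). REL was at 7.59 and 8.48 CPM against 22.8 and 23.9 CPM, 2.92-fold higher (log2 fold change 1.55 ± 0.11, adjusted p = 3.38e-09 in edgeR). RELA, at 193 and 176 CPM against 159 and 141 CPM, was the only member not called (log2 fold change -0.29 ± 0.06, adjusted p = 0.000523 in edgeR).

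The 3 inhibitors were all lower in the libraries labelled H929 THZ1. NFKBIE had the largest difference of any member, at 32.1 and 35.03 CPM against 5.68 and 5.39 CPM, 6.04-fold (log2 fold change -2.59 ± 0.11, adjusted p = 5.34e-12 in edgeR). NFKBIA was at 98.1 and 93.0 CPM against 20.1 and 19.97 CPM, 4.75-fold lower (log2 fold change -2.25 ± 0.07, adjusted p = 1.38e-13 in edgeR). TNFAIP3 was at 88.9 and 75.0 CPM against 24.0 and 27.8 CPM (log2 fold change -1.66 ± 0.09, adjusted p = 1.02e-10 in edgeR). MAP3K14 was lower as well, at 46.1 and 48.8 CPM against 10.7 and 9.24 CPM, 4.73-fold (log2 fold change -2.24 ± 0.10, adjusted p = 4.53e-12 in edgeR). TRAF3, which restrains NIK, went the other way, at 15.4 and 15.0 CPM against 29.5 and 25.6 CPM (log2 fold change 0.86 ± 0.10, adjusted p = 9.87e-07 in edgeR). The groups of libraries did not overlap in any of the 10 members, where 45.5% of all genes were fully separated downward and 45.5% upward.

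An interaction term, fitted to all 8 libraries, asked whether the responses differed between the labels. The difference was called in 8 of 10 members, against 53.7% of the 16122 genes tested. It was higher in JJN3 in 6 (25.5% of genes) and lower in REL and TRAF3 (28.1%). The response of NFKBIA was 1.94 ± 0.11 log2 units higher in JJN3 than under the H929 label (adjusted p = 3.31e-10 in edgeR), that of TNFAIP3 1.87 ± 0.13, that of MAP3K14 1.82 ± 0.15, that of NFKBIE 1.55 ± 0.17 and that of NFKB1 1.47 ± 0.11. For TRAF3 it was -0.82 ± 0.13 (adjusted p = 4.82e-05 in edgeR). RELB and RELA had responses for which no difference was called, at 0.14 ± 0.14 and 0.14 ± 0.11 log2 units (adjusted p = 0.431 and 0.281 in edgeR). RELB was thus called lower under both labels with no called difference between them. The differences of NFKB2 (0.61 ± 0.13) and REL (-0.65 ± 0.22, adjusted p = 0.0198 in edgeR) were not called under every setting. NFKB2 was inside the limit at 0.43 without JJN3 THZ1 replicate 2 and at 0.49 without H929 THZ1 replicate 2. REL was at -0.41 without JJN3 DMSO replicate 1 (adjusted p = 0.173 in edgeR), while it stayed at -0.58 without H929 DMSO replicate 1 (0.0601), -0.64 without H929 THZ1 replicate 2 (0.0523) and -0.66 in DESeq2 (0.0700).

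The level of each gene was then followed across the 4 groups. The JJN3 and H929 counts come from separate tables, so the line label and the table cannot be told apart. TRAF3 showed the largest difference between the labels with DMSO, at 104 ± 4.09 CPM (SD, n = 2) in JJN3 against 15.2 ± 0.340 CPM, a 6.86-fold higher level in JJN3 (log2 fold change 2.78 ± 0.10, adjusted p = 3.83e-13 in edgeR). TNFAIP3 was 1.76-fold higher in JJN3 with DMSO. NFKB1, NFKB2, REL, RELB, NFKBIA and MAP3K14 were lower there, with log2 differences from -0.55 in NFKB2 to -1.04 in RELB. Together 8 members were called, where 61.5% of 16122 genes were (30.8% lower and 30.7% higher), and RELA (-0.26) and NFKBIE (-0.47) lay within the limit. REL was not called without JJN3 DMSO replicate 2 (adjusted p = 0.0790 in edgeR), and NFKBIE was called without H929 DMSO replicate 1, at -0.53.

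With THZ1, the order of several members turned. NFKB1, NFKBIA, NFKBIE and MAP3K14 were called higher in JJN3 than in the libraries labelled H929 THZ1, and had the opposite sign between the DMSO groups. TNFAIP3 and TRAF3 were called higher in JJN3, and REL and RELB lower, as between the DMSO groups. These were 8 members in all, where 63.9% of genes were called (32.3% higher and 31.6% lower). TNFAIP3 differed the most, at 166 ± 0.429 CPM against 25.9 ± 2.74 CPM (6.42-fold, log2 fold change 2.68 ± 0.10, adjusted p = 5.35e-13 in edgeR). NFKB2 was at 62.1 ± 9.13 CPM in JJN3 and 59.6 ± 5.31 CPM under the H929 label, which overlapped (log2 fold change 0.06 ± 0.09). Of the 30 pairs of neighbouring groups in the 10 orders of level, 24 were separated by their libraries. The 6 that overlapped were JJN3 with DMSO and JJN3 with THZ1 for NFKB1 and TRAF3, the THZ1 groups for NFKB2, JJN3 with DMSO and H929 THZ1 for RELB, and 2 pairs for RELA. This count was not made over all genes, so it does not set the members apart. Separation was common: between the JJN3 treatments, 41.4% of all genes were fully separated downward and 38.5% upward.

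Levels of different genes were compared per kb of canonical transcript (GENCODE v44 lifted to GRCh37, which is not the annotation the reads were counted on). With DMSO in JJN3, RELA (61.0 ± 2.32 CPM per kb) and NFKB2 (59.0 ± 0.569 CPM per kb) were the highest subunits, followed by NFKB1 (19.4 ± 0.149), RELB (11.7 ± 0.503) and REL (0.469 ± 0.108). RELA and NFKB2 differed by less than the spread of RELA. With the union of annotated exons as length, this order turned within both pairs of neighbours, with NFKB2 at 43.0% of the summed level against 37.9% for RELA, and RELB at 11.9% against 6.78% for NFKB1. NFKB2 made up 38.9% ± 0.942 of the summed level of the 5 subunits with DMSO and 20.4% ± 1.28 with THZ1 (SD, n = 2), and RELA 40.2% ± 0.941 and 54.5% ± 1.86. The NFKB1 share was 12.8% ± 0.285 and 18.3% ± 0.502 in JJN3, and 14.7% ± 0.626 and 10.5% ± 1.08 under the H929 label. A share moves with every other subunit in the sum: the levels of RELA and NFKB1 themselves were not called in JJN3 (log2 fold changes -0.14 and -0.06). In the libraries labelled H929 the NFKB2 share was 39.95% ± 1.22 with DMSO and 19.1% ± 0.445 with THZ1, and the RELA share 33.9% ± 1.63 and 57.6% ± 1.03. The shares of all libraries of a treatment lay on the same side of those of the other treatment for NFKB2, RELA and REL. With the exon union, the NFKB2 share was 43.0% and 24.0% in JJN3 and 43.5% and 21.0% under the H929 label.

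**Figure D3:**
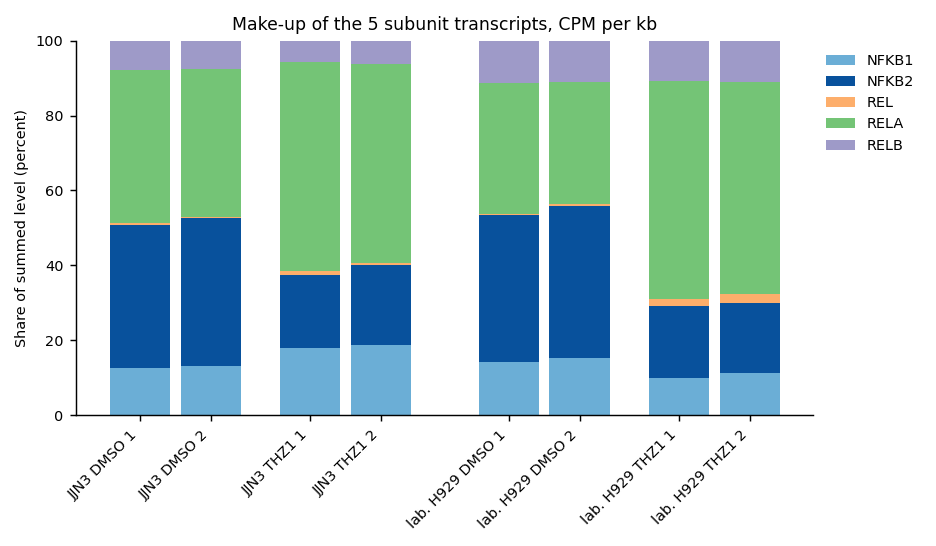
Share of each subunit in the summed level of the 5 subunits (percent, from CPM per kb of canonical transcript) in each of the 8 libraries, one bar per library. NFKB2 takes 38.3% to 40.8% of each DMSO library and 18.8% to 21.3% of each THZ1 library, and the RELA share is larger with THZ1. The level of RELA itself was lower with THZ1, by log2 fold changes of -0.14 in JJN3 and -0.29 under the H929 label, neither of them called.

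The genes whose profile over the 8 libraries was most like that of a member were found from the root mean square (RMS) difference between centred log2 CPM values, among the 8957 genes whose mean log2 CPM reached 3. For NFKB2 these were MRPL20 (0.11 log2 units), a mitochondrial ribosomal protein, and NIP7 (0.12) and MRTO4 (0.17), both factors of ribosome assembly, where the median over all genes was 1.03. MRPL20 was at 103 and 110.4 CPM in JJN3 with DMSO and 32.7 and 36.5 CPM with THZ1. For NFKBIA they were PCGF2 (0.08), PITHD1 (0.09) and TYRO3 (0.10). For TRAF3 they were CENPU (0.15), DAP (0.17) and L3MBTL3 (0.17), and DAP was at 572 and 566 CPM in JJN3 with DMSO and 85.2 and 79.7 CPM in the libraries labelled H929 DMSO. The points share their libraries and the contrast between the labels, and no test was made.

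The rest of the pathway was described with 6 lists of 90 genes in all. In JJN3, 19 of the 67 genes tested were called lower and 16 higher (medians of all lists together 0.13). These counts were 32 and 21 of 71 under the H929 label. The background for these counts and for those of each list below is the share of all genes tested. It was 21.3% lower and 20.6% higher in JJN3, and 32.6% and 33.1% under the H929 label.

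Among the ligands, few were expressed in JJN3. IL1A, a cytokine that activates canonical signaling, had 0 counts in both DMSO libraries and 13 and 17 counts with THZ1. That is 11.3-fold higher with the DMSO group set at a floor of 3 counts, and the 95% counting interval of the ratio starts at 8.65. TNFSF13B, which encodes the plasma cell survival factor BAFF, rose from 12 and 4 counts in the DMSO libraries to 26 and 15 in the THZ1 libraries (log2 fold change 1.54 ± 0.53, adjusted p = 0.0277 in edgeR and 0.167 in DESeq2). It was not called without DMSO replicate 2 (adjusted p = 0.242) or without THZ1 replicate 1 (0.188). In the libraries labelled H929, IL1A held 0 and 3 counts in the DMSO group and 15 and 23 in the THZ1 group, a ratio of 12.2 (95% counting interval 3.88 to 61.9). LTB, a subunit of the ligand of the non-canonical receptor LTBR, had 3389 and 2636 counts against 0 and 2 there, a ratio of 3122 (864 to 25782), and 0 counts in all JJN3 libraries. TNFSF13, which encodes APRIL, had 170 and 133 counts against 7 and 10.

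Of the 11 receptors, 5 were tested in JJN3 and 3 were called lower. TNFRSF17, the plasma cell receptor BCMA, was at 173 and 191 CPM with DMSO and 111 and 120 CPM with THZ1 (log2 fold change -0.64 ± 0.09, adjusted p = 9.64e-05 in edgeR). Under the H929 label it went the other way, at 46.0 and 55.7 CPM against 622 and 618 CPM (log2 fold change 3.61 ± 0.07). TNFRSF1B, the second TNF receptor, was at 179 and 176 CPM with DMSO and 93.8 and 119 CPM with THZ1 in JJN3 (log2 fold change -0.72 ± 0.11). Under the H929 label 6 of 7 receptors tested were lower, among them TNFRSF13B, the receptor TACI, with 276 and 308 counts against 9 and 4, and TNFRSF12A with 324 and 341 counts against 29 and 30.

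The adaptors and ubiquitin ligases had 7 genes lower and 1 higher of 17 in JJN3, with a median log2 fold change of -0.34. IRAK1 and IRAK4, kinases of Toll-like and interleukin receptors, fell by 0.87 ± 0.09 and 0.67 ± 0.10 on the log2 scale. BIRC2, which encodes the ligase cIAP1 that acts with TRAF3 on NIK, was at 65.6 and 69.0 CPM with DMSO and 114 and 96.1 CPM with THZ1 (log2 fold change 0.66 ± 0.09, adjusted p = 0.000141 in edgeR). Its relative BIRC3, an NF-κB target, was at 346 and 305 CPM with DMSO and 197 and 256 CPM with THZ1 in JJN3 (log2 fold change -0.51 ± 0.12, adjusted p = 0.00372 in edgeR). Under the H929 label BIRC3 was at 225 and 187 CPM against 2.68 and 2.11 CPM, and BIRC2 at 35.4 and 31.9 CPM against 118 and 127 CPM. There, 7 of 17 adaptors were lower, RBCK1 (log2 fold change -1.98 ± 0.07) among them, and 4 were higher. BIRC2 and BIRC3 thus had opposite signs under both labels.

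Of the 10 kinases and their partners, 2 were lower and 2 higher in JJN3. IKBKE, an IKK-related kinase, was at 17.7 and 19.3 CPM with DMSO and 7.22 and 8.34 CPM with THZ1 (log2 fold change -1.23 ± 0.14), and TAB1 fell by 1.11 ± 0.10 on the log2 scale. TAB2 rose by 1.06 ± 0.09 and MAP3K7, the kinase TAK1 that both TAB proteins bind, by 0.61 ± 0.08. IKBKE was also lower under the H929 label (log2 fold change -2.28 ± 0.10), the only gene of the list that was. IKBKB (1.40 ± 0.07), MAP3K7 (0.70 ± 0.06) and TAB2 (0.63 ± 0.07) were higher there. In JJN3, IKBKB, the catalytic subunit IKKβ, was at 63.9 and 62.5 CPM with DMSO and 46.4 and 49.99 CPM with THZ1, which was not called (log2 fold change -0.37 ± 0.08).

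In the list of other inhibitors, 6 of 13 genes tested were called higher in JJN3 and 1 lower, with a median log2 fold change of 0.43. The 6 included NFKBIZ (0.96 ± 0.15) and BCL3, just past the limit at 0.50 ± 0.10. Both genes, like NFKBID, encode nuclear relatives of IκB that are not plain inhibitors. The counts therefore describe the list and not inhibitors as a class. CYLD, a deubiquitinase whose loss is known in MM, was at 78.2 and 75.3 CPM with DMSO and 127 and 150.4 CPM with THZ1 (log2 fold change 0.87 ± 0.09, adjusted p = 1.81e-05 in edgeR). RNF11, a partner of TNFAIP3, rose by 0.74 ± 0.08. NFKBID was the only one called lower (log2 fold change -0.66 ± 0.22, adjusted p = 0.0232 in edgeR and 0.158 in DESeq2), and was not called without DMSO replicate 1, DMSO replicate 2 or THZ1 replicate 1 (adjusted p = 0.135, 0.0613 and 0.0548). Under the H929 label 5 were lower and 5 higher, with CYLD lower at 175 and 163 CPM against 52.9 and 55.5 CPM and NFKBIB at -1.47 ± 0.08. ITCH (1.67 ± 0.06) and RNF11 (1.07 ± 0.06) were higher.

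Among 30 known NF-κB targets, 22 were tested in JJN3, of which 7 were lower and 5 higher, with a median log2 fold change of 0.09. CXCL10, a chemokine, was at 51.9 and 56.7 CPM with DMSO and 3.98 and 1.95 CPM with THZ1 (log2 fold change -4.20 ± 0.20, adjusted p = 3.72e-07 in edgeR). ICAM1, an adhesion molecule, fell by 0.97 ± 0.09. JUNB, a subunit of the factor AP-1, was at 82.1 and 73.4 CPM with DMSO and 263 and 196 CPM with THZ1 (log2 fold change 1.58 ± 0.13), and the chemokine CCL5 rose by 1.80 ± 0.23. The targets thus did not move one way in JJN3, and neither did all genes tested (21.3% lower and 20.6% higher). Under the H929 label 12 of 21 targets were lower and 7 higher, where 32.6% and 33.1% of all genes were. CXCL10 had 15764 and 14526 counts against 0 in both, at least 10462-fold lower against a floor of 3 counts over the group, and PLEK had 9351 and 8652 counts against 11 and 6. TNFAIP8 (log2 fold change 3.52 ± 0.09) and JUNB (1.23 ± 0.06) were higher. The counting intervals cover counting error only, and the ratios to a floor cover none.

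**Figure D4:**
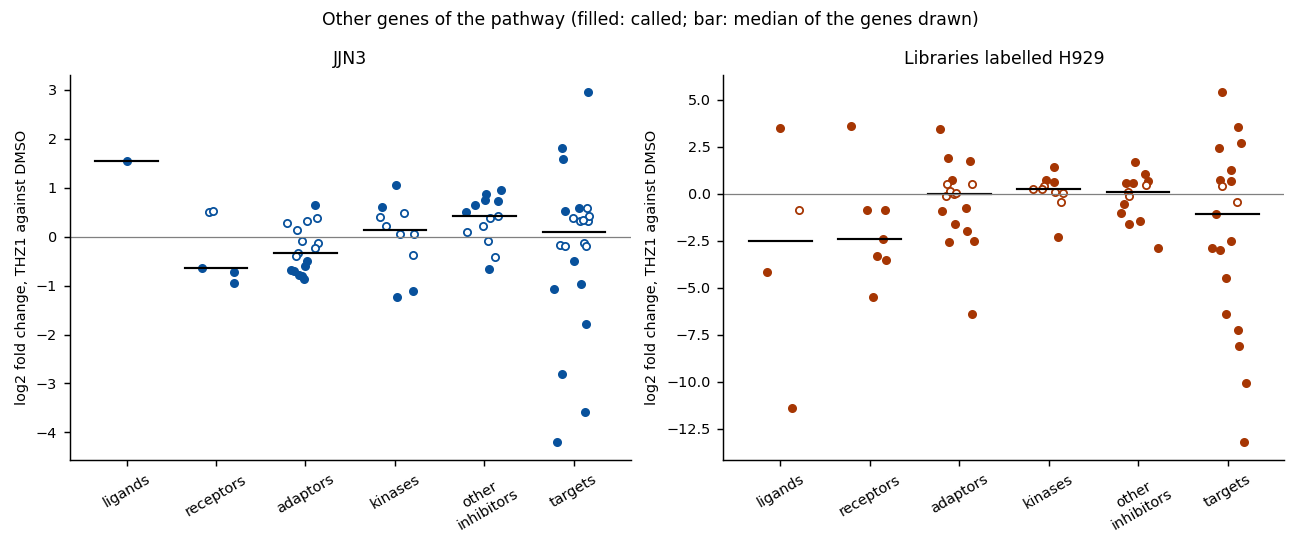
log2 fold change of THZ1 against DMSO for the genes of the 6 lists that were tested in JJN3 (left) and in the libraries labelled H929 (right), with called genes filled and the median of the genes drawn as a bar. The vertical scales differ, and IL1A in JJN3 and IL1B, CXCL10 and TNFAIP2 under the H929 label are not drawn because 1 group had 0 counts. The bar of the other inhibitors lies at 0.43 and that of the adaptors at -0.34 in JJN3.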

How the data were processed

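Per the labels, total RNA of JJN3 and H929 cells was sequenced as single-end reads. The authors aligned them to hg19 with STAR 2.5.2a, kept uniquely mapping reads and deposited raw counts per Ensembl gene from featureCounts, in 1 table per line. The strand setting is not given in the sources used here. The authors' DESeq2 (1.12.4) tables hold their fold changes, errors, test statistics and p-values, which were not used; the gene symbols deposited in the JJN3 table were. Counts were tested with edgeR 4.0.16 in R 4.3.3 (TMM, filterByExpr, quasi-likelihood test, Benjamini-Hochberg over all genes tested), within each line label, and over all 8 libraries for the interaction and for the contrasts between labels. CPM values are scaled by TMM over all 8 libraries. Tests were tried on simulated data. The alternatives were DESeq2 1.42.0, scaling by its size factors or by total counts, testing without a filter or with one at 1 CPM in at least 2 libraries, fold change limits of 1 or none, all 8 libraries in one fit, a replicate block and leaving out each library. The exon union as transcript length was an alternative chosen after seeing the data.

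The members and lists were chosen with earlier results of these data known. The genes named are the 10 members, up to 2 called genes in each direction with the lowest adjusted p per list and line label, less 1 adaptor that is not reported here, the 3 genes most like NFKB2, NFKBIA and TRAF3 over the 8 libraries, and the markers of cell types. SLAMF7, IRF4, MZB1, XBP1, CD38, IGJ, KRT18, ITGAM, LYZ, CD3E, CD3D, CD22 and, under figures, IL1B and TNFAIP2 were named after their values were seen. So were EPCAM, BCL3 and NFKBIZ. At these depths 3 counts correspond to 0.156 to 0.172 CPM.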

Additional observations from a re-analysis of the deposited data

Results flagged for a closer look

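The results below differed between the line labels by the interaction test, as the log2 response in JJN3 minus that in the libraries labelled H929, with adjusted p from edgeR. They cover the members and genes already named for a response within a label of these same libraries. Named genes with no called difference are left out. Of all 16122 genes tested, 53.7% were called for this difference. Because under the H929 label THZ1 and the origin of the cells cannot be told apart, the results are given as values. Among the members the difference was 1.47 for NFKB1 (adjusted p = 1.42e-08), 0.61 for NFKB2 (0.000558), -0.65 for REL (0.0198), 1.94 for NFKBIA (3.31e-10), 1.55 for NFKBIE (8.42e-07), 1.87 for TNFAIP3 (3.27e-09), -0.82 for TRAF3 (4.82e-05) and 1.82 for MAP3K14 (2.03e-08).

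Among the ligands it was 2.398 for TNFSF13B (adjusted p = 0.00957) and 4.82 for TNFSF13 (0.00172), which had at most 5 counts in any JJN3 library and was at 9.13 without JJN3 DMSO replicate 2 and 3.85 without JJN3 DMSO replicate 1. Without JJN3 DMSO replicate 2 or JJN3 THZ1 replicate 1, TNFSF13B was at 1.80 and 1.86 (adjusted p = 0.0575 and 0.0532), and in DESeq2 its adjusted p was 0.0764. For the receptors it was -4.26 for TNFRSF17, 5.47 for TNFRSF13B and 4.04 for TNFRSF12A. TNFRSF13B was at 3.06 without JJN3 THZ1 replicate 2 (adjusted p = 0.231). The adaptors had -0.85 for IRAK1, -1.40 for IRAK4, -1.22 for BIRC2, 5.90 for BIRC3 and 1.88 for RBCK1. The kinases and partners had -1.12 for TAB1, 1.04 for IKBKE and -1.78 for IKBKB.

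Among the other inhibitors the difference was -1.21 for NFKBID, 2.498 for CYLD, 1.05 for NFKBIB and -1.25 for ITCH. For the targets it was 3.50 for ICAM1, 4.67 for CCL5, 8.99 for PLEK and -3.00 for TNFAIP8. For CXCL10 the fit gave 12.7, which depends on the prior count because both libraries labelled H929 THZ1 had 0 counts.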

How the results depend on the processing

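With 2 libraries per group, counts of called members were 4 in JJN3 and 9 under the H929 label, and 8 for the interaction and for each contrast between labels. A log2 limit of 1 gave 2 in JJN3, 5 for the interaction, 2 between the DMSO groups and 5 between the THZ1 groups, and no limit gave 7 in JJN3, by the limits' own construction. Under the H929 label, TRAF3 (0.86) was no longer called at a limit of 1. The share of all genes called at a limit of 1 was not worked out, so these counts cannot be set against a background. With no limit, 59% of genes passed in JJN3. Leaving out single libraries gave 4 in JJN3, 9 under the H929 label, 6 to 8 for the interaction, 7 to 9 between the DMSO groups and 8 between the THZ1 groups. Leaving out a library also reversed NFKB1 (-0.18 to 0.049) and TRAF3 (-0.035 to 0.14) in JJN3, RELB in the interaction (-0.022 to 0.24) and NFKB2 between the THZ1 groups (-0.11 to 0.16), none of them called. With total counts, the median of all genes moved to -0.10 in JJN3 and -0.18 in the interaction, and TRAF3 in JJN3 (-0.048), RELA (-0.00069) and RELB (-0.0047) in the interaction and NFKB2 between the THZ1 groups (-0.054) reversed. The cause was not tested. The other alternatives kept these counts within 1.5 times.

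The replicate numbers did not pair the libraries: deviations of libraries with the same number correlated at 0.0096 in JJN3 and -0.011 under the H929 label, over 2 pairs each. With the replicate number as a block, the counts were 4, 9, 8, 8 and 8, and no member's call changed. Replicates were not close to sampling noise, with a chi-square per degree of freedom of 3.56 to 12.4. REL, with 85 to 453 counts, had the largest standard error of the members in JJN3 (0.20). The ligands, with few counts, are the least precise of the lists.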
